A study of Mus musculus with 8 samples.

Results

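The 10 genes described here act on Wnt signalling outside the cell, at its receptors or in the nucleus. They are the secreted antagonists Dkk1, Sfrp1, Sfrp5 and Frzb, the feedback targets Axin2 and Sp5, the nuclear effectors Lef1, Tcf7 and Tcf7l1, and the receptor Ror2. Each was found by its symbol, as 1 row each among the 18094 genes of the expression table. Wild type (WT) and CTCF-K20R cells were each sequenced as undifferentiated mESCs (day 0) and as EBs on day 4, and every genotype and day had 2 libraries. All cells derived from E14Tg2A, a mouse embryonic stem cell line kept in serum on a feeder layer of mitomycin C-inactivated mouse fibroblasts, with leukemia inhibitory factor (LIF) and the 2i inhibitors CHIR99021 and PD0325901. CTCF-K20R cells carry a lysine-to-arginine substitution in the chromatin architectural protein CTCF, made by CRISPR/Cas9. EBs are aggregates grown in hanging drops in serum without LIF, in which the germ layers begin to form. The 2i inhibitors are not listed for the EB medium. No label names clones or separate cultures, so a difference between the genotypes cannot be told apart from one between the cell lines or cultures used.

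In the canonical Wnt pathway, Wnt ligands bind Frizzled receptors with Lrp5 or Lrp6, which stops a destruction complex of Axin, Apc and the kinase Gsk3 from degrading β-catenin, and β-catenin then acts on target genes through DNA-binding proteins of the TCF/LEF family. The pathway induces its own inhibitors, such as Axin2 and Dkk1, and in the early embryo it is needed for the primitive streak and mesoderm. CHIR99021 inhibits Gsk3, so mESCs in 2i receive a signal on this pathway from the medium.

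TCF/LEF proteins recognise a core written here as CTTTGNN, where each N is A or T, on either strand. The 250 bases before the RefSeq transcription starts (build GRCm38.p6) were read for these letters. Of the 10 genes, 9 matched a RefSeq entry and Sfrp1 did not. A core was found for Dkk1, Sp5 and Lef1, that is 3 of 9 genes (33.33%), against 16.75% of the 27025 genes with an entry. A pair of cores was found for Dkk1 and Sp5, and at least 2 cores for 1.695% of all genes. The Lef1 core lay before an alternative start 45823 bases inside the gene and in none of its other windows. For Frzb and Tcf7l1 the only window lay mostly after the GENCODE start, which is 229 and 209 bases further upstream. Bases before that start were mostly not read for them. The Sp5 and Axin2 stretches are shown because they differ in these letters and belong to genes that are both described as direct targets of the pathway. Cores are in capitals, both sequences run 5′ to 3′ on the gene's strand (+) and end at the base before the start, at chr2:70474673-70474922 for Sp5 and chr11:108920099-108920348 for Axin2.
Sp5: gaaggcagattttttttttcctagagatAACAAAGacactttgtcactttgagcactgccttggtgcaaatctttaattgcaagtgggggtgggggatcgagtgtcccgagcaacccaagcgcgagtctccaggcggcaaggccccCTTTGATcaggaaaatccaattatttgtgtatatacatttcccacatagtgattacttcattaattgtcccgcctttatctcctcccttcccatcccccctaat
Axin2: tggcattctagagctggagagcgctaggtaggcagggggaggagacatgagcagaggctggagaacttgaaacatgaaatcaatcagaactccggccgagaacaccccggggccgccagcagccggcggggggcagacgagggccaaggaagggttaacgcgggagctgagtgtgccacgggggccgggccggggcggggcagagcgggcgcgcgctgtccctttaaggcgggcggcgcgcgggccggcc
The Dkk1 cores stood close together and fit in 30 bases, at chr19:30549586-30549615 on the − strand. This stretch lies before the RefSeq start and after the GENCODE start, which is 169 bases further upstream.
Dkk1: agCTTTGAAatcccatcccggCTTTGTTgt
These matches are letters in a window. No binding was measured here.

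Values are normalized counts, and differences are CTCF-K20R minus WT on the log2(normalized count + 1) scale, tested with limma over 15767 genes. A gene was called a DEG at an absolute log2 difference above 1 with a Benjamini-Hochberg adjusted p under 0.05. Library totals ran from 19412659 to 21311513 normalized counts, and the depth in reads is not known. The 2 WT libraries of each day differed by less than the sampling noise, with a mean squared difference of 0.314 of the counting noise on day 0 and 0.278 on day 4. They were therefore averaged and counted as 1 sample, so WT has no SD. The CTCF-K20R pairs, at 4.00 and 4.36 of the counting noise, gave all of the error, and p-values measure the spread of these pairs. The authors describe the libraries as 2 biological replicates. The labels do not say how the pairs were made, and their spread may be technical.

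**Figure D1:**
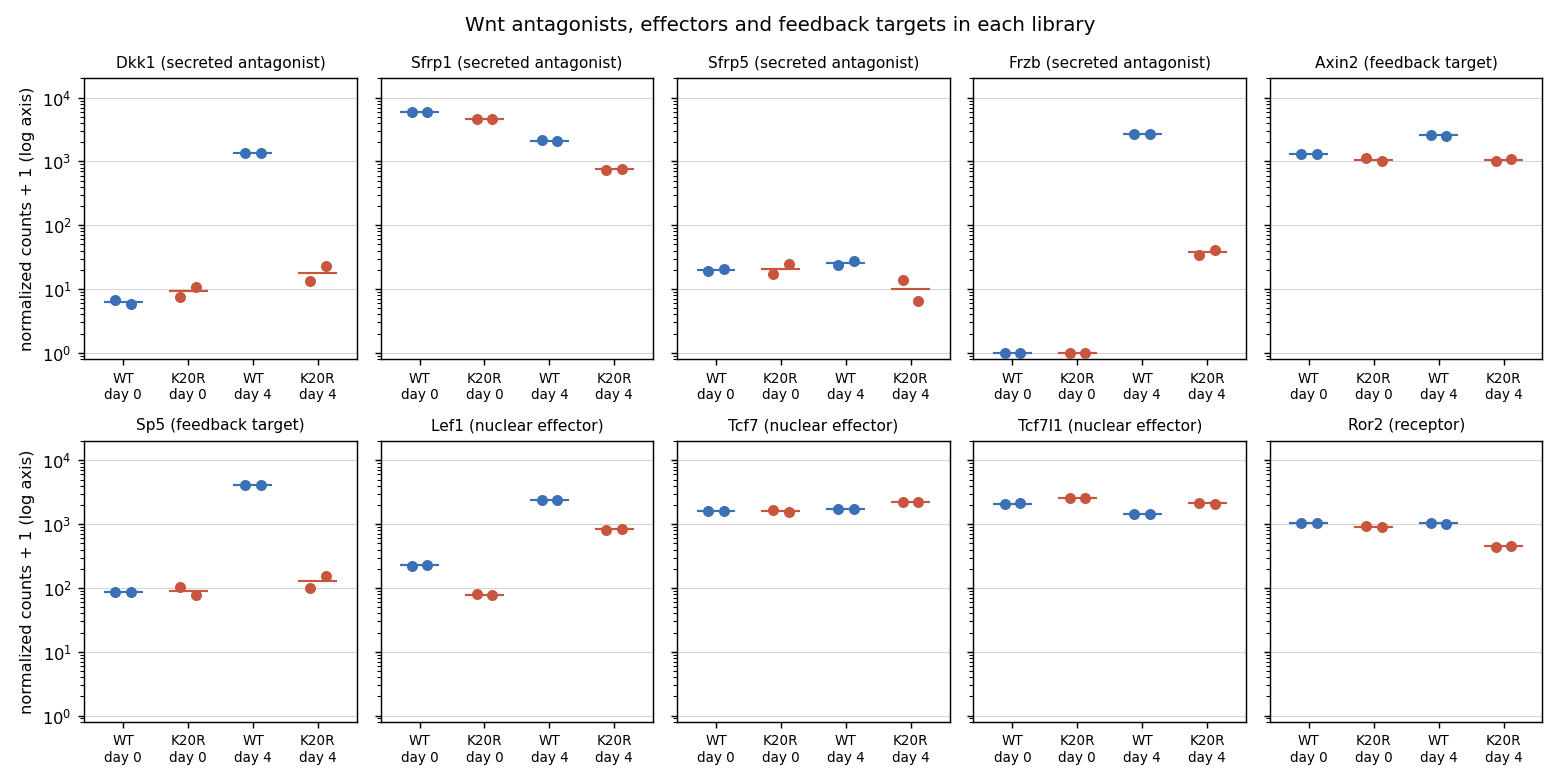
Normalized counts + 1 on a log axis for each of the 8 libraries, one panel a gene. Blue points are WT, red points CTCF-K20R, and lines are the means of the 2 libraries. The WT EBs stood far above the other 3 groups for Dkk1, Frzb and Sp5, while Tcf7 and Tcf7l1 lay within a narrow range.

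On day 4, 7 of the 10 genes were downregulated in CTCF-K20R EBs, where 8.65% of all genes tested were called lower. They were Dkk1, Sfrp1, Frzb, Axin2, Sp5, Lef1 and Ror2. None of the 10 was called higher, against 6.89% of all genes. The 10 genes were chosen with earlier results of these data known. Setting these counts against the shares of all genes is therefore not an independent test. The libraries of the 2 genotypes did not overlap for any of the 10, with CTCF-K20R below WT for 8 genes and above WT for Tcf7 and Tcf7l1. Such separation held for 85% of all genes, so it says little by itself. The median log2 difference of the 10 genes was −1.46, and that of all genes 0.01. All 10 passed the minimum mean of 10 normalized counts, which for Dkk1 and Frzb came almost wholly from the WT EBs.

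Among the secreted antagonists, Dkk1 and Frzb were almost silent in CTCF-K20R EBs. Dkk1, which blocks the co-receptors Lrp5 and Lrp6 (ENSMUSG00000024868, chr19:30545863-30549665, − strand), reached 1364 and 1344 normalized counts in the pair of WT EB samples, whereas CTCF-K20R EBs held 12.5 and 21.8. The WT mean was 78.9-fold the CTCF-K20R mean of 17.2 ± 6.57 (SD, n = 2), and the log2 difference was −6.27 ± 0.50 (SE, adjusted p = 0.000550, limma). The CTCF-K20R EBs thus stood near the mESC level of this gene, which was 5.66 and 4.73 in WT and 6.46 and 9.92 in CTCF-K20R.

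Frzb, also known as Sfrp3, binds Wnt proteins outside the cell (ENSMUSG00000027004, chr2:80411970-80447625, − strand). It was listed at 0 in all 4 mESC libraries. In EBs it reached 2721 and 2701 normalized counts in WT and 33.04 and 40.5 in CTCF-K20R. The log2 difference on day 4 was −6.17 ± 0.46 (SE, adjusted p = 0.000427, limma), and the WT mean was 73.7-fold the CTCF-K20R mean of 36.8 ± 5.27 (SD, n = 2). In CTCF-K20R the gene thus moved from 0 in mESCs to a low level in EBs.

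Sfrp1, a Frizzled-related protein that binds Wnt proteins, was the most abundant of the 4 antagonists in mESCs by normalized counts per kilobase (ENSMUSG00000031548, chr8:23411502-23449632, + strand). Its mESC values were 5938 and 5982 normalized counts in WT and 4644 and 4551 in CTCF-K20R. It stood at 2134 and 2087 in WT EBs and at 740 and 756 in CTCF-K20R EBs. Sfrp1 therefore had its highest values on day 0, the reverse of Dkk1 and Frzb. The difference on day 4 was −1.50 ± 0.05 on the log2 scale (SE, adjusted p = 4.63e-05, limma), with a CTCF-K20R mean of 748 ± 11.05 (SD, n = 2).

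Sfrp5, another Frizzled-related protein, was low throughout (ENSMUSG00000018822, chr19:42197971-42202252, − strand). The mESC libraries held 18.1 and 19.8 normalized counts in WT and 16.4 and 23.3 in CTCF-K20R. The EB libraries held 22.6 and 26.3 in WT and 12.9 and 5.41 in CTCF-K20R. Both CTCF-K20R EB values were below both WT values, and the log2 difference of −1.43 ± 0.61 (SE) was not a DEG (adjusted p = 0.116, limma, 95% interval −2.96 to 0.09). It passed both thresholds when all 8 libraries were treated as separate samples (adjusted p = 0.0138, limma). That alternative counts the near-identical WT libraries as replicates, so its smaller p adds no support.

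Both feedback targets were downregulated on day 4, by different amounts. Sp5, a zinc finger transcription factor, has the promoter with both cores shown above (ENSMUSG00000075304, chr2:70474923-70477729, + strand). It held 4173 and 4144 normalized counts in WT EBs, and CTCF-K20R EBs held 100 and 155. The latter were close to the mESC values of 86.0 and 84.4 in WT and 101 and 76.4 in CTCF-K20R. The log2 difference on day 4 was −5.05 ± 0.31 (SE, adjusted p = 0.000242, limma), a 32.7-fold ratio of WT to the CTCF-K20R mean of 127 ± 38.5 (SD, n = 2).

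Axin2, a scaffold of the destruction complex and a widely used readout of the pathway, kept a substantial level in all 8 libraries (ENSMUSG00000000142, chr11:108920349-108950783, + strand). WT EBs had 2598 and 2547 normalized counts and CTCF-K20R EBs 1022 and 1094. The mESC values were 1297 in both WT libraries and 1121 and 1000 in the CTCF-K20R libraries. The WT EBs thus stood apart from the other 3 groups, which lay within a narrow range. The log2 difference on day 4 was −1.28 ± 0.09 (SE, adjusted p = 0.000407, limma), with a CTCF-K20R mean of 1058 ± 51.2 (SD, n = 2).

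The TCF/LEF proteins did not move together. Lef1, which mostly activates targets with β-catenin (ENSMUSG00000027985, chr3:131110471-131224356, + strand), stood at 2402 and 2353 normalized counts in WT EBs, with CTCF-K20R EBs at 804 and 850. The log2 difference was −1.52 ± 0.12 (SE, adjusted p = 0.000528, limma), and the CTCF-K20R mean was 827 ± 33 (SD, n = 2). Lef1 was also lower in mESCs, as described below for day 0.

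Tcf7, also known as Tcf1 (ENSMUSG00000000782, chr11:52252371-52283014, − strand), was slightly higher in CTCF-K20R EBs, at 2196 and 2223 normalized counts against 1740 and 1727 in WT. The log2 difference of 0.35 ± 0.06 (SE) had an adjusted p of 0.00746 (limma) and lay under the minimum difference of a DEG. Without the first CTCF-K20R EB library the adjusted p was 0.0591, and without the second 0.0630. In mESCs the values overlapped, at 1603 and 1604 in WT and 1652 and 1564 in CTCF-K20R.

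Tcf7l1, also known as Tcf3 and mainly a repressor of Wnt targets in mESCs (ENSMUSG00000055799, chr6:72626378-72789254, − strand), was likewise higher in CTCF-K20R without reaching the minimum difference. WT EBs held 1466 and 1458 normalized counts and CTCF-K20R EBs 2124 and 2103, a log2 difference of 0.53 ± 0.05 (SE, adjusted p = 0.00102, limma). In mESCs it had 2082 and 2123 in WT and 2534 and 2603 in CTCF-K20R. The CTCF-K20R libraries were above the WT libraries on both days.

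Levels of different genes were compared only per kilobase of coding transcript. With the longest transcript, WT EBs held 683 normalized counts per kilobase of Lef1, 702 of Tcf7 and 481 of Tcf7l1. In CTCF-K20R EBs the means were 238 for Lef1, 894 for Tcf7 and 695 for Tcf7l1. Per kilobase of the median coding transcript, WT EBs held 704 of Lef1, 823 of Tcf7 and 775 of Tcf7l1, and CTCF-K20R EBs 245, 1049 and 1119, so the order in WT EBs depends on the length used. Lef1 was the lowest of the 3 in CTCF-K20R EBs with both lengths. It was also the lowest in mESCs with both, on the longest transcript at 64.8 in WT and 22.4 in CTCF-K20R, where Tcf7 had 649 and 651 and Tcf7l1 had 691 and 844.

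Ror2, a receptor tyrosine kinase that binds Wnt5a and is known mainly for β-catenin-independent signalling, was downregulated on day 4 (ENSMUSG00000021464, chr13:53109312-53286124, − strand). WT EBs had 1038 and 1012 normalized counts and CTCF-K20R EBs 445 and 453, a log2 difference of −1.19 ± 0.08 (SE, adjusted p = 0.000292, limma). In mESCs Ror2 had 1034 and 1036 in WT and 919 and 895 in CTCF-K20R. The CTCF-K20R EBs were the only group far from the others.

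**Figure D2:**
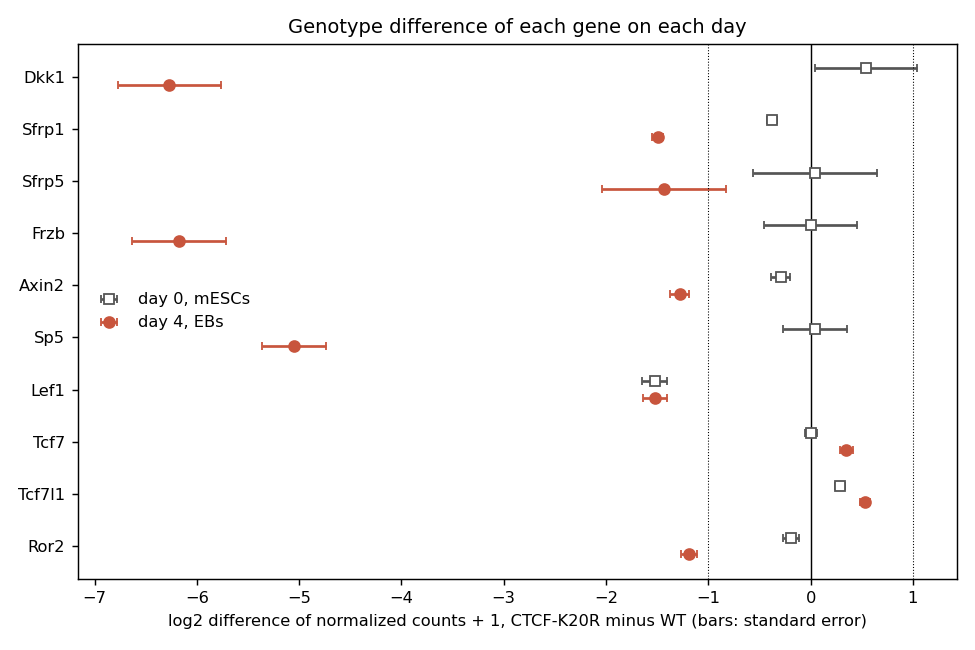
Difference of CTCF-K20R minus WT on the log2(normalized count + 1) scale for each gene, in mESCs on day 0 (open squares) and EBs on day 4 (red circles), with standard errors. Dotted lines mark the minimum difference of a DEG. Lef1 is the single gene whose squares and circles coincide beyond the line, at −1.52 on both days.

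In mESCs the genotypes differed less. Lef1 alone among the 10 genes was downregulated, with 221 and 230 normalized counts in WT and 80.5 and 75.3 in CTCF-K20R (log2 difference −1.52 ± 0.12, SE, adjusted p = 0.00227, limma). Of all genes, 2.6% were called lower and 1.19% higher on day 0, and none of the 10 was called higher. The Lef1 call was lost in a fit of the day 0 libraries alone (adjusted p = 0.0776, limma), without the mean-variance trend (0.0529) and without the first (0.0638) or second (0.0639) CTCF-K20R EB library. Its log2 difference stayed at −1.52 in these 4 fits, which changed only the estimated error.

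The remaining differences on day 0 were small. Sfrp1 was lower by −0.37 on the log2 scale (adjusted p = 0.00991) and Tcf7l1 higher by 0.29 (adjusted p = 0.0214, limma), both under the minimum difference. Axin2 differed by −0.29 (95% interval −0.53 to −0.06, adjusted p = 0.0951, limma) and Ror2 by −0.19 (−0.39 to 0.01). The intervals were wide for the low genes, at −0.71 to 1.80 for Dkk1 and −1.48 to 1.56 for Sfrp5. Libraries of the 2 genotypes overlapped for Sfrp5, Sp5 and Tcf7, were tied at 0 for Frzb, and were separate for the other 6 genes, against 77.9% of all genes. The median of the 10 log2 differences was 0.00 and that of all genes −0.01.

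The genotype difference was then compared between the days, which also differ in culture medium. It was more negative on day 4 than on day 0, past both thresholds, for 4 of the 10 genes, where 12.9% of all genes were called in either direction. The change in the log2 difference was −6.81 for Dkk1 (adjusted p = 0.00248), −6.17 for Frzb (0.00249), −5.09 for Sp5 (0.00139) and −1.12 for Sfrp1 (0.000581, limma). With all day 0 values of Frzb at 0, its change equals its difference on day 4. Axin2 and Ror2 lay at the border, at −0.99 (adjusted p = 0.00538) and −0.997 (adjusted p = 0.00303, limma), just under the minimum difference. Axin2 passed it at −1.07 without the second CTCF-K20R mESC library and at −1.002 without the second WT EB library. Ror2 passed it at −1.02 without either of these and at −1.01 without the second CTCF-K20R EB library. For Lef1 the change was 0.00, with a 95% interval of −0.42 to 0.43.

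The change from day 0 to day 4 was set out in each genotype. In WT it compares 1 sample with 1 sample and has no test. In both genotypes, day cannot be told apart from medium, since EBs were grown without LIF and with no 2i listed. In EBs Dkk1 stood at 260-fold its mESC mean, Sp5 at 48.8-fold, Lef1 at 10.5-fold and Axin2 at 1.98-fold. Of the 10 genes, 4 had a WT log2 change above 1 (Dkk1, Frzb, Sp5 and Lef1), as did 18.9% of all genes, and Sfrp1 had one below −1, at −1.50, as did 16.3% of all genes.

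In CTCF-K20R, where both days have 2 libraries, Lef1 and Frzb were called higher on day 4 than on day 0 (14.5% of all genes) and Sfrp1 and Ror2 lower (11.6% of all genes). Lef1 rose by 3.39 on the log2 scale (adjusted p = 8.31e-06, limma), or 10.6-fold, beside 10.5-fold in WT. The Frzb rise, from 0 to a mean of 36.8, has no fold, and its fitted log2 change ran from 3.06 to 8.52 with the pseudocount. Sfrp1 changed by −2.62 (adjusted p = 2.02e-06) and Ror2 by −1.01 (adjusted p = 0.000101, limma). Ror2 lost its call under quantile normalization, at −0.957. It also lost it without the first CTCF-K20R mESC library, at −0.99, and without the first CTCF-K20R EB library, at −0.998.

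The other 6 genes were not called in this comparison. Axin2 changed by −0.00, with a 95% interval of −0.19 to 0.19. Sp5 changed by 0.50 (−0.14 to 1.14, adjusted p = 0.149) and Dkk1 by 0.96 (−0.07 to 1.98, adjusted p = 0.0950, limma).

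**Figure D3:**
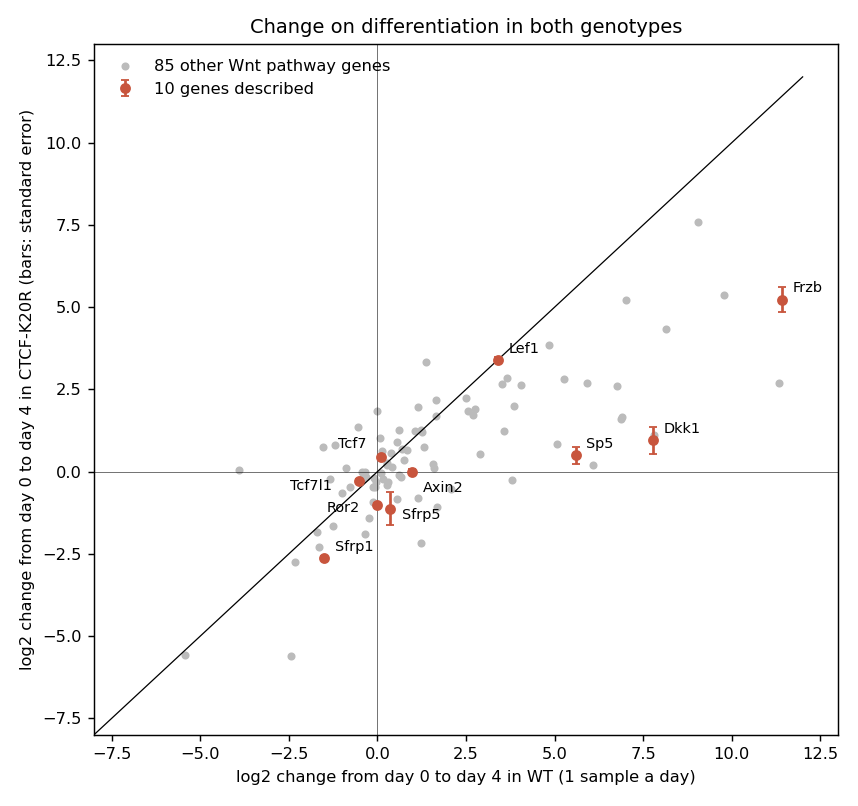
Change from day 0 to day 4 on the log2(normalized count + 1) scale in WT (x axis, 1 sample a day) and in CTCF-K20R (y axis, 2 libraries a day, with standard errors). Red points are the 10 genes, grey points the 85 other Wnt pathway genes tested, and the line marks equal change. Lef1 sits on the line, while Dkk1, Sp5 and Frzb sit well below it.

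The other genes of the pathway were read from lists of ligands, antagonists, receptors and their regulators, the secretion and destruction complex, nuclear partners and further targets. These lists too were chosen with earlier results of these data known, so their counts are not an independent test. Some listed genes passed the minimum mean only through the WT EBs, which favours a lower call on day 4. Of 98 genes listed, 93 had a row and 85 were tested. On day 4, 27 were called lower and 6 higher (8.65% and 6.89% of all genes), with a median log2 difference of −0.40 against 0.01 for all genes. On day 0, 5 were called lower and 4 higher (2.6% and 1.19% of all genes). These 9 calls fell to 0 without either CTCF-K20R EB library, to 5 without the second CTCF-K20R mESC library, to 1 with day 0 alone and to 2 without the mean-variance trend.

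Of the 12 ligands tested, 8 were lower and 1 was higher on day 4. Among those lower, Wnt2 and Wnt3a passed the minimum mean only through the WT EBs. Wnt5a, a ligand of Ror2, reached 1671 and 1685 normalized counts in WT EBs but 30.5 and 19.2 with CTCF-K20R (log2 difference −6.06, adjusted p = 0.000322, limma). Wnt2 had 115 in both WT libraries and 3.44 and 1.09 in the CTCF-K20R libraries, and Wnt2b differed by −4.22. Wnt9a was the ligand called higher, by 2.02.

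The other extracellular antagonists went both ways, with 4 of 12 lower and 2 higher. Cer1, an antagonist of Nodal and BMP ligands that was placed in this list, reached 7907 and 7871 normalized counts in WT EBs but 8.01 and 8.76 with CTCF-K20R. Igfbp4 differed by −3.002 and Draxin by −2.73. The 2 antagonists called higher were the remaining members of the Sfrp family. Sfrp2 stood at 346 in both WT EB libraries, and CTCF-K20R EBs held 1408 and 1388 (log2 difference 2.01, adjusted p = 0.000249, limma). Sfrp4 had 23.1 and 22.7 in WT and 229 and 199 in CTCF-K20R (3.16, adjusted p = 0.000294, limma). Within the family of Sfrp1, Sfrp2, Frzb, Sfrp4 and Sfrp5, CTCF-K20R EBs thus held less Sfrp1 and Frzb and more Sfrp2 and Sfrp4. The calls of Sfrp1 and Frzb held in every alternative tried. Those of Sfrp2 and Sfrp4 were not followed through the alternatives.

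Of the 23 receptors and receptor regulators, 6 were lower and 3 higher. The R-spondin Rspo3, an enhancer of Wnt signalling, differed by −5.44, its receptor Lgr5 by −4.64 and Fzd1 by −3.36. Lgr6 differed by 1.77, Rspo1 by 1.39 and Lgr4 by 1.36. In the secretion and destruction complex list, 1 of 17 genes was called on day 4, namely Wls, a carrier needed for Wnt secretion, at −1.92. The transcript of β-catenin itself, Ctnnb1, differed by 0.09.

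Of the 12 nuclear partners, 3 were lower. They were Tcf7l2, the remaining TCF/LEF gene, at −2.09 (787 and 803 normalized counts in WT EBs, with 210 and 164 for CTCF-K20R), Tle2 at −1.67 and Pygo1 at −1.58. Lef1 and Tcf7l2 were therefore lower in CTCF-K20R EBs, whereas Tcf7 and Tcf7l1 were not. Of the 9 further targets, 5 were lower, led by T at −5.33, Cdx2 at −4.63 and Sp8 at −1.98.

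**Figure D4:**
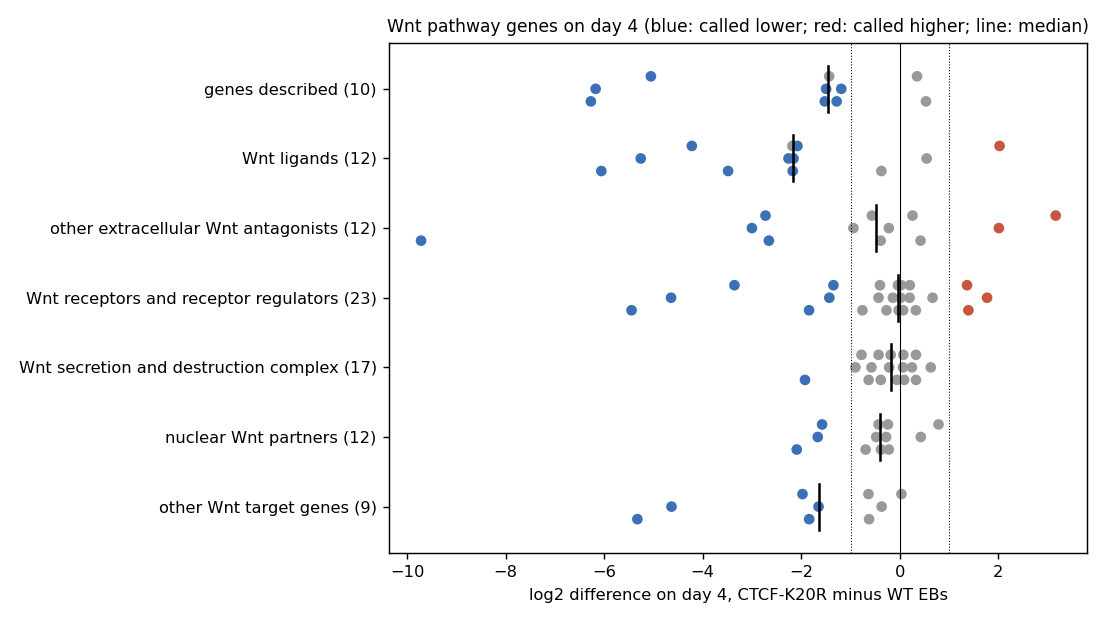
Difference of CTCF-K20R minus WT EBs on the log2(normalized count + 1) scale for each tested gene, by list, with the number of genes in brackets. Blue points were called lower, red points higher and grey points not called, and black lines are list medians. The 10 genes described lie between −6.27 and 0.53, and in the secretion and destruction complex list only Wls was called.

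Markers of cell types also differed on day 4, and T and Cer1 among them are counted in the pathway lists above as well. The primitive streak and mesoderm markers were lower for 8 of 8 genes (T, Mixl1, Eomes, Mesp1, Tbx6, Msgn1, Pdgfra and Kdr), and their sum was 42930 and 43076 normalized counts in WT EBs against 2529 and 2418 in CTCF-K20R EBs. Definitive endoderm markers were lower for 6 of 6 genes. Among these markers, Mesp1, Msgn1, Sox17 and Cer1 passed the minimum mean only through the WT EBs, which favours a lower call. Pluripotency markers were higher for 4 of 6 genes (Nanog, Sox2, Esrrb and Zfp42) and lower for Klf4, with sums of 15404 and 15511 in WT and 31927 and 31201 in CTCF-K20R. Most of these sums was Pou5f1, which was not called (0.78). Of 2 visceral endoderm markers tested, 1 was higher. Neural ectoderm markers were higher for 2 of the 3 tested, Sox1 and Pax6. The sums of this list were 1937 and 1904 in WT and 2655 and 2684 in CTCF-K20R. Nes made up most of these sums and was not called (0.41). Sox1 had a mean of 46.9 normalized counts in CTCF-K20R EBs, below its mESC means of 130 in WT and 146 in CTCF-K20R. From day 0 to day 4 in CTCF-K20R, Sox1 changed by −1.63 and Pax6 by 2.24 on the log2 scale. In bulk RNA, fewer cells of a type and less RNA per cell cannot be told apart, and the part of cell composition in the values of the 10 genes was not tested.

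The feeder cells of the mESC cultures are fibroblasts. Fibroblast markers summed to 642 and 638 normalized counts in WT mESCs and 513 and 519 in CTCF-K20R mESCs, and to 603 and 585 in WT EBs against 866 and 785 in CTCF-K20R EBs. On day 4, Col3a1 and Thy1 were higher and Postn lower, of 6 tested. In mESCs, Thy1 was lower in CTCF-K20R, at 104 and 103 against 465 and 459 in WT, and Pdgfrb higher, at 353 and 369 against 131 and 138, so that the sums hold opposite changes. Col1a1 had 17.4 and 16.02 in WT mESCs and 34.3 and 32.2 in CTCF-K20R mESCs, Col1a2 lay between 12.2 and 28.1, Col3a1 and Lum at or under 1.51, and Dcn and Postn at 0 in all 4 libraries. The part of feeder cells in the values of the 10 genes was not tested. The mESC label matched its markers on day 0, with Esrrb between 16202 and 17343 normalized counts, against 71.5 to 480 in EBs. Pou5f1 lay between 23485 and 24703 in mESCs. It separates the days less, since CTCF-K20R EBs still held 21940 and 21590.

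Neighbouring genes were read for each gene within 1 Mb. Their median log2 difference on day 4 ranged from −0.37 around Ror2 (6 genes) to 0.14 around Tcf7l1 (30 genes). It was −0.03 for the 9 genes around Dkk1, of which 1 was called lower, 0.06 for the 8 around Frzb, of which 1 was lower and 1 higher, and −0.02 for the 23 around Sp5, of which 3 were lower and 1 higher. Antisense genes overlap exons of Axin2 (Gm11670), Lef1 (Gm43352) and Tcf7l1 (Gm15401) in GENCODE. Gm11670 reached at most 12.03 normalized counts and Gm15401 at most 20.4 in any library, and the use of strand in the counting is not given in the sources used here.

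For each gene but Tcf7l1, the 3 genes with the nearest profile are given, found by the root mean square log2 difference over the 6 samples, each profile centred on its mean. Those nearest to Dkk1 were Bace2 (0.38), Six2 (0.40) and Slc28a2 (0.45), and those nearest to Sp5 were Wnt2b (0.35), Chrd (0.36) and Tbx6 (0.39). Frzb was nearest to Rspo3 (0.48), Asb4 (0.58) and 5730457N03Rik (0.81). Sfrp1 was nearest to Creb3l2, Tnrc18 and Cd38, Sfrp5 to Rasal1, Rrm2b and Yy2, and Axin2 to Uhrf2, Tmem67 and Mcc. Lef1 was nearest to Lancl3, Gpc6 and Mogat2, Tcf7 to Gnai2, Ube2v1 and Hdgf, and Ror2 to Slc6a6, H2afy and Plod1. With 2 genotypes and 2 days, such likeness is a description of 4 levels.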

How the data were processed

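RNA-seq data came from mESCs (day 0) and EBs (day 4) of both genotypes. The authors used Trim Galore for trimming, Salmon on mm10 for quantification and DESeq2 for normalization of the summed gene counts. The deposited signal is normalized counts, from which whole reads could not be recovered, so no count model was used. Of 18094 genes, the 15767 with a mean value of 10 or more were tested on the log2(value + 1) scale by limma (version 3.58.1, R 4.3.3, lmFit, eBayes with a mean-variance trend, two-sided), with 1 mean per group and Benjamini-Hochberg adjustment over all genes tested. The WT pair of each day entered as 1 sample, giving 6 samples with 2 residual and 3.51 prior degrees of freedom. The fit was also run on simulated data, with large changes planted only in genes that were not low. That run does not cover small changes or low genes such as Sfrp5. Positions came from GENCODE vM21 (GRCm38) and promoters from RefSeq, read with Python 3.11.15.

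The 10 genes and the pathway and marker lists were chosen with earlier results of these data known. Genes named were all 10, up to 3 called genes with the largest rise and 3 with the largest fall per pathway list (day 4 mean of at least 20), Sfrp2, Sfrp4, Tcf7l2, the 3 genes nearest in profile (highest sample of at least 100) and cell type markers. Ctnnb1 is named outside this rule, after its value was seen. Alternatives were all 8 libraries as separate samples, other pseudocounts, no filter, quantile normalization, no trend, the compared day alone, adjusted p alone, a replicate block and each library left out. Some listed genes without a row were not analysed here. The genes nearest in profile to Tcf7l1 are not reported here.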

Additional observations from a re-analysis of the deposited data

Results flagged for a closer look

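Of the 10 genes, 4 had a genotype difference that itself differed between mESCs and EBs past both thresholds in limma's interaction test. The change in the log2 difference from day 0 to day 4 was −6.81 for Dkk1, −6.17 for Frzb, −5.09 for Sp5 and −1.12 for Sfrp1. On day 0 the log2 difference was 0.54 for Dkk1, 0.04 for Sp5 and −0.37 for Sfrp1, none of them a DEG, and Frzb was listed at 0 in both genotypes. No group had more than 2 libraries, so no group was tested for a library far from the others.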

How the results depend on the processing

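No log2 difference of the 10 genes changed sign past the thresholds in any alternative. The count of 7 lower genes on day 4 was 8 with all 8 libraries as separate samples and a replicate block. On day 0 the count of 1 lower gene fell to 0 without the mean-variance trend and with day 0 alone, and ranged from 0 to 1 on leaving out a library. The count lower on day 4 than on day 0 in CTCF-K20R fell from 2 to 1 under quantile normalization and ranged from 1 to 2 on leaving out a library. With the adjusted p alone, 2 genes were higher on day 4, 2 lower and 1 higher on day 0, 7 differed between days, and 54 other pathway genes were called on day 4 in place of 33. The share of all genes called by the adjusted p alone was not computed. Counts under this rule therefore cannot be set against the shares given above, which hold for the stricter rule. The other pathway genes called on day 0 numbered 9, against 14 with all 8 libraries as separate samples (also 14 with the block), 2 without the trend, 1 with day 0 alone, 24 with the adjusted p alone, and 0 to 9 on leaving out a library.

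Replicate numbers were shared between groups but did not pair the samples, since same-numbered deviations correlated between −0.03 and 0.03. With the replicate block alone, 7 genes were lower on day 4 and 4 differed between days, and it changed no call. Of the results for single genes, 176 of 180 on day 4, 174 of 180 on day 0, 161 of 170 between days and 163 of 170 over time in CTCF-K20R kept their side of the thresholds. These tallies include alternatives that could hardly change a result. Leaving out a WT library kept the log2 differences of the other day and those over time in CTCF-K20R as they were. The adjusted p alone could only add calls. The tallies therefore overstate how far the results were tried. The low values of Sfrp5, and of Dkk1 and Frzb on day 0, limit what could be detected there.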
